A study of Homo sapiens with 16 samples.

Results

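The genes described here are those of the NF-kB subunits and their best-known inhibitors. They were chosen by symbol: NFKB1, NFKB2, RELA, RELB and REL encode the 5 subunits, and NFKBIA, NFKBIB, NFKBIE, NFKBIZ and TNFAIP3 encode 5 inhibitors or regulators. These are 10 of the 62069 gene identifiers in the count table, and all 10 had enough counts to be tested. NF-kB subunits pair into dimers that bind DNA at kB sites. In resting cells IkB proteins hold most dimers in the cytoplasm. Signals from cytokine or pattern-recognition receptors activate the IkB kinase (IKK), IkB is degraded and the dimers enter the nucleus. Several inhibitor genes are themselves NF-kB targets, so the pathway feeds back on itself, and in senescent fibroblasts it is known for driving inflammatory cytokine and chemokine genes.

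RNA-seq counts came from 16 libraries of IMR90 ER:RAS, a human lung fibroblast line carrying a RAS oncoprotein fused to the oestrogen receptor's hormone-binding part. The drug 4-hydroxytamoxifen (4OHT, 100 nM) activates the fusion protein, and sustained RAS activity brings on senescence, a lasting growth arrest. There were 4 groups of 4 libraries: non-senescent cells (EV, replicates 49 to 52), senescent cells given 4OHT (EV_4OHT, 53 to 56), and cells given 4OHT that carried the hairpin shAHCY_2 (57 to 60) or shAHCY_4 (61 to 64). The hairpins target AHCY, the enzyme that breaks down S-adenosylhomocysteine. All libraries share the cell line with its fusion protein, passage 15 and day 6. The labels do not state what the EV cells were given in place of 4OHT, and they list the same number of days after 4OHT for EV as for the other groups. No label says whether the hairpin groups were senescent. No group had 4OHT without the fusion protein or a hairpin without 4OHT, so an effect of the drug itself and one of RAS activity cannot be told apart. No group carried a hairpin that does not target AHCY. Loss of AHCY and other effects of carrying a hairpin therefore cannot be told apart either. Whether the 4 libraries of a group were grown as separate cultures is not stated, and p-values therefore reflect only library-to-library spread, part of which could be technical.

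Library totals ran from 8236199 to 18235787 counts. AHCY had 1552 to 2000 counts in the EV libraries, 2023 to 2583 in EV_4OHT, 117 to 334 in shAHCY_2 and 110 to 243 in shAHCY_4, as the labels say. All 9 fibroblast markers were measured, and their summed level was 14900 to 18000 CPM (counts scaled to library size) in EV, 8340 to 8890 in EV_4OHT, 8260 to 9540 in shAHCY_2 and 8920 to 10000 in shAHCY_4. The 6 leukocyte markers summed to 0.751 to 1.11 CPM in EV and 1.81 to 4.03 in the other 3 groups, with CD3E at 0 in every library. The 4 endothelial markers summed to at most 2.0 CPM, with PECAM1 and CDH5 at 0. The 6 epithelial markers summed to 41.6 to 58 CPM, of which KRT18 gave 30.3 to 50, and KRT14 was at 0. shAHCY_2 replicate 59 stood apart: its distance from its group was 0.499 (root mean square, log2 scale) against 0.318 to 0.404 in the other 15 libraries. Its deviations also ran against the GC content of genes (Spearman's rho across genes -0.538, against -0.269 to 0.286 in the others; genes are not independent replicates), and the shAHCY_2 tests are therefore also given without it. The chi-square of counts per degree of freedom between library pairs of a group was 24.2 to 29.3 for replicate 59. EV replicate 51 gave 35.8 against EV replicate 49 and 32.9 against 52, but 10.3 against 50. Its rho was -0.269. Calls against EV that the genes described here lost without EV replicate 51 are given below.

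Promoter sequence was examined first, because several of these genes are known targets of the factor they encode or inhibit. RefSeq (GRCh38.p14) gave windows from 250 bases before to 50 bases after the annotated starts of 8 of the 10 genes, 14 windows in all. RELB and NFKBIE had no entry. The windows were searched on both strands for a kB-like motif, GGG, then any 3 bases, then TTCC. It was found for 7 of the 8 genes (87.5%), against 2139 of all 27305 genes (7.83%). By window the share was 8 of 14 (57.1%) against 6.52% of all 35116 windows. The exception was RELA, whose 2 windows held no such letters. The classical kB consensus, which overlaps this motif and is no separate support, was also found for 7 of the 8 genes, against 7.09% of all genes. Since several of the genes were known targets before the search, a high share was foreseeable. The shares are given as description only. NFKBIA, NFKBIZ, TNFAIP3 and REL, 4 of the 7 genes with a match, are shown as examples. Their sequences run 5′ to 3′ on the gene's strand, with the matches in capitals.

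NFKBIA, chr14:35404791-35404860, minus strand, promoter match with 30 bases on each side.
NFKBIA: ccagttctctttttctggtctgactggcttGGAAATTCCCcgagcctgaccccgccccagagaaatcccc
NFKBIZ, chr3:101827740-101827806, plus strand, its first annotated start.
NFKBIZ: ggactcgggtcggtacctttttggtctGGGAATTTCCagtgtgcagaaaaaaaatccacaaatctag
TNFAIP3, chr6:137867162-137867243, plus strand, with a pair of separate matches.
TNFAIP3: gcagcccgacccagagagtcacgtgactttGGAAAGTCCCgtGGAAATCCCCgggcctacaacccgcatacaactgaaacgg
REL, chr2:60881497-60881567, plus strand, with a match on each strand that overlap.
REL: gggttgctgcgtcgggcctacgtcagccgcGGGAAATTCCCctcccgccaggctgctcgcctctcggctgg

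The NFKBIA match lay at bases -81 to -72 from the start, and the REL matches together spanned -47 to -37. The TNFAIP3 promoter held matches at -67 to -58 and -55 to -46. With overlapping matches counted as well, 0.336% of all windows held 2 or more, and so did windows of NFKB2, REL and NFKBIB. NFKB2 also held a pair of separate matches, upstream of its second listed start, at -106 to -97 and -78 to -69, and a further one at -21 to -12 from the next start. NFKB1 had a match at -49 to -40, and NFKBIB had overlapping matches within -28 to -18 of its second start. NFKBIZ was the outlier in position for this motif, with its match at -223 to -214. The window of its second start held 0 matches to the motif but 1 to the classical consensus, whose position is not given here. A match describes letters only, and binding was not measured.

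**Figure D1:**
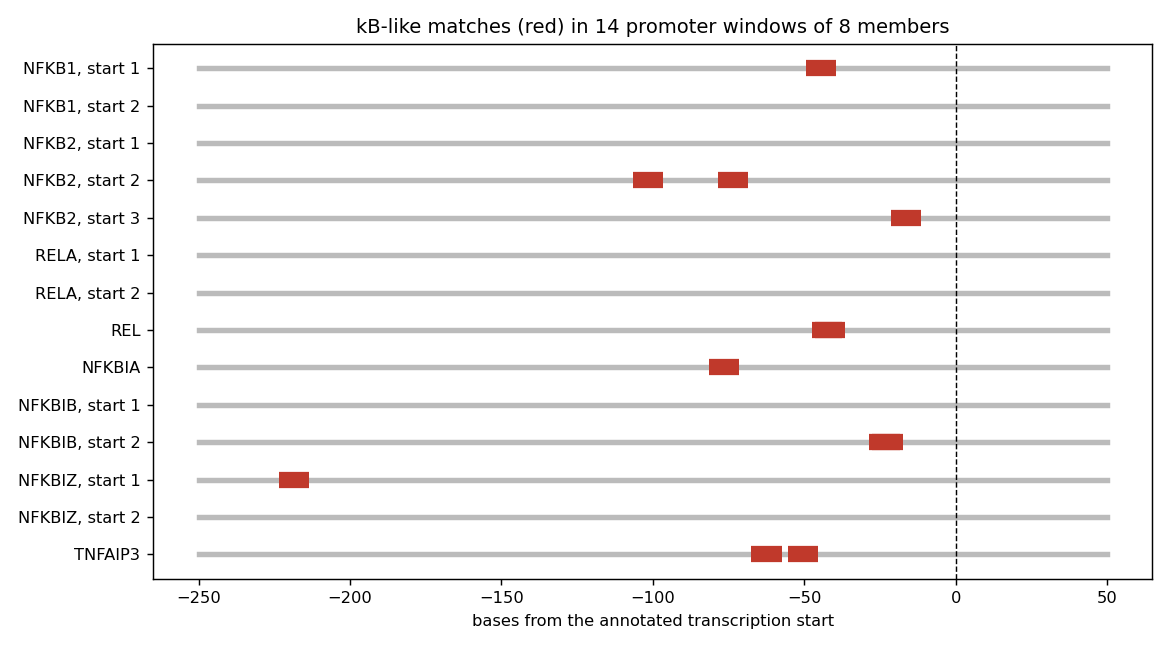
Promoter windows of 8 genes, 14 windows in all, drawn to scale in bases from the annotated transcription start (dashed line), with kB-like matches in red. The NFKBIZ match lies farthest upstream, at -223 to -214, all others lie between -106 and -12, and RELA has none.

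Levels were compared between genes as CPM per kb of the longest protein-coding transcript. The gene of the main IkB protein, NFKBIA, had the highest level in all 4 groups, at 52 ± 3.45 CPM per kb in EV (SD, n = 4) and 48.6 ± 1.96 in EV_4OHT. RELA, which encodes the main transactivating subunit, came second at 27.7 ± 2.78 in EV and 36.0 ± 2.15 in EV_4OHT. The ranges of NFKBIA, RELA and the next gene down did not overlap in any group. REL, the subunit best known from lymphocytes, was lowest in every group, at 0.212 ± 0.0492 in EV and 0.132 ± 0.0243 in EV_4OHT.

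The order between these extremes shifted with senescence. In EV, NFKBIB followed at 5.49 ± 0.578, then NFKBIZ (2.93 ± 0.302), TNFAIP3 (2.93 ± 0.106) and RELB (2.78 ± 0.472), whose neighbouring ranges overlapped. NFKB1 (1.5 ± 0.178) stood clear of both its neighbours, and NFKBIE (0.776 ± 0.159) and NFKB2 (0.726 ± 0.161) overlapped. In EV_4OHT, NFKBIZ reached 7.26 ± 0.891 and overlapped NFKBIB at 7.25 ± 0.475, RELB (3.51 ± 0.540) stood clear of both neighbours, and TNFAIP3 (1.99 ± 0.477), NFKB1 (1.44 ± 0.190), NFKB2 (1.08 ± 0.304) and NFKBIE (0.904 ± 0.289) overlapped in turn. In both hairpin groups NFKBIB and NFKBIZ again came next after RELA, with overlapping ranges. Dividing by the union of all exons instead kept the top 2 genes and REL in place and swapped only genes whose ranges overlapped.

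**Figure D2:**
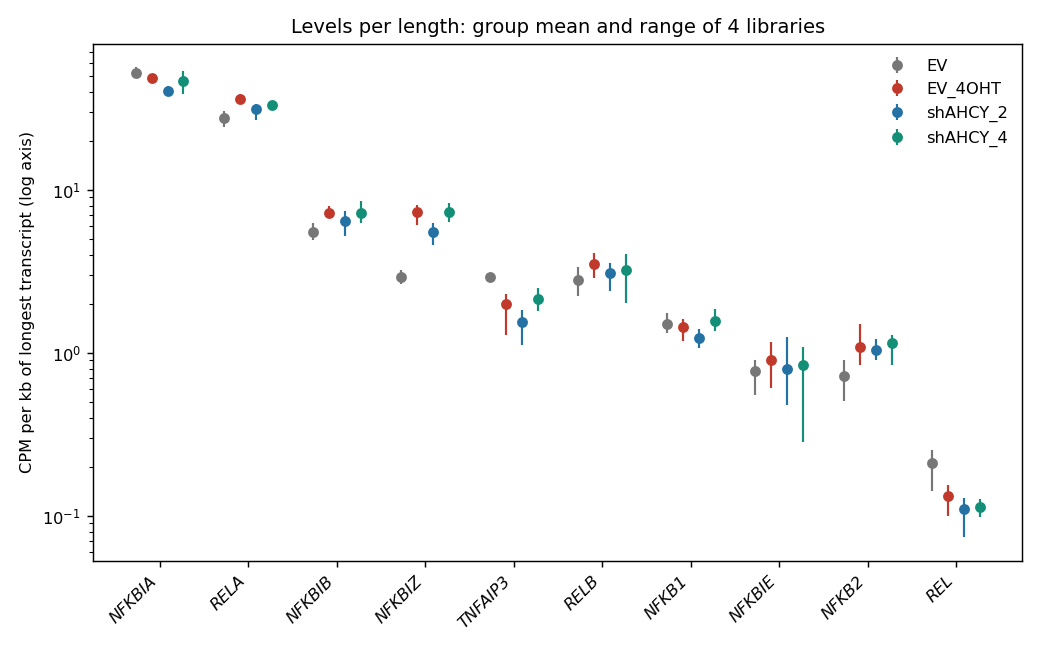
Levels of the 10 genes per length (CPM per kb, log axis), ordered by EV; points are group means and bars the range of 4 libraries. NFKBIA and RELA lie above all others, REL below all others, and NFKBIZ moves from 2.93 in EV to 7.26 in EV_4OHT.

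Within the subunits, RELA made up 84.1% ± 1.11 (SD, n = 4) of the summed per-kb level of the 5 genes in EV and 85.4% ± 0.944 in EV_4OHT, and 85.1% ± 0.472 and 84.6% ± 2.41 in shAHCY_2 and shAHCY_4. The ratio of NFKBIA to RELA per kb was 1.88 ± 0.130 in EV, 1.36 ± 0.119 in EV_4OHT, 1.31 ± 0.0842 in shAHCY_2 and 1.40 ± 0.223 in shAHCY_4. Its lowest EV library (1.76) was above the highest in each of the 3 other groups (1.47, 1.39 and 1.68). The ratio of NFKBIZ to NFKBIA was 0.0562 ± 0.00304 in EV and 0.149 ± 0.0149 in EV_4OHT. These ratios are of transcript levels and carry no test.

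The senescence comparison, EV_4OHT against EV, asks what differs between senescent cells given 4OHT and non-senescent cells. Of the 10 genes 4 rose (NFKBIZ, NFKB2, RELA and NFKBIB) and 2 fell (TNFAIP3 and REL) at an adjusted p under 0.05 (edgeR quasi-likelihood test, Benjamini-Hochberg over 13526 genes). Among all genes tested 26.7% were called higher and 26.8% lower, so a share of 6 in 10 is near the background. Of all called genes 49.9% were higher, or 38.2% when libraries were scaled by their totals alone, which moved the median of all genes to -0.128. Under that scaling the 6 members kept their directions, and NFKB2 and NFKBIB were no longer called. The sizes were ordinary too: the median absolute log2 change was 0.39 for the 10 genes and 0.403 for all genes. NFKBIZ alone reached a log2 change of 1 in size, against 18.4% of all genes. The fibroblast marker sum, 14900 to 18000 CPM in EV and 8340 to 8890 in EV_4OHT, moved with the same contrast, and its part in these changes was not tested. In bulk RNA, fewer cells expressing a gene and less RNA per cell cannot be told apart.

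Among the subunits, RELA measured 96.4, 86.0, 76.6 and 93.6 CPM in the EV libraries and 116, 109, 123 and 110 in EV_4OHT. The ranges did not overlap, and RELA rose by 0.38 ± 0.09 (log2, SE; adjusted p 0.000769, edgeR). NFKB2, whose precursor is processed in the non-canonical pathway, measured 1.74, 3.07, 2.59 and 2.52 CPM in EV and 3.66, 3.06, 5.16 and 2.86 in EV_4OHT. These ranges overlapped, and the rise of 0.58 ± 0.23 (adjusted p 0.0372, edgeR) passed in 14 of 25 alternative analyses. Without EV_4OHT replicate 55, its highest library, it was 0.34. Leaving out EV replicate 51 gave 0.59, which was not called (adjusted p 0.0567, edgeR).

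REL measured 2.43, 2.66, 2.86 and 1.60 CPM in EV and 1.41, 1.65, 1.74 and 1.13 in EV_4OHT, from 15 to 54 counts a library. The lowest EV library lay within the EV_4OHT range. REL fell by 0.68 ± 0.26 on the log2 scale (adjusted p 0.0331, edgeR), a call kept in 19 of 25 alternatives. With each library's GC trend removed the change was -0.51 and not called (adjusted p 0.0958, edgeR). Nor was it called without EV replicate 51, the highest library (-0.59, adjusted p 0.102, edgeR). On GRCh38 REL shares 5702 bases on the same strand with AC010733.2, which had 0 to 14 counts, so the counting could have split reads between them. RELB, the partner of the processed NFKB2 product, measured 6.53, 6.15, 5.13 and 7.75 CPM in EV and 8.73, 6.60, 9.37 and 7.52 in EV_4OHT, with a log2 difference of 0.34 that did not pass (95% interval -0.06 to 0.74). NFKB1, the precursor subunit that pairs with RELA, ran from 5.45 to 7.13 CPM in EV and from 4.82 to 6.56 in EV_4OHT, a difference of -0.05 (-0.37 to 0.28).

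NFKBIZ had the clearest rise. It encodes a nuclear IkB protein that acts on chromatin-bound NF-kB and is needed for some secondary response genes, IL6 among them. It measured 12.7, 10.5, 10.4 and 12.3 CPM in EV and 24.0, 27.4, 31.7 and 30.8 in EV_4OHT. All 4 senescent libraries lay above all 4 non-senescent ones, and the log2 rise was 1.31 ± 0.12 (adjusted p 6.51e-09, edgeR). NFKBIB, a cytoplasmic IkB, measured 10.2, 10.6, 9.46 and 12.1 CPM in EV and 13.5, 13.7, 13.4 and 15.3 in EV_4OHT, again without overlap. Its rise of 0.40 ± 0.13 (adjusted p 0.0129, edgeR) passed in every alternative except scaling by library totals alone, where it was 0.29. NFKBIB shares 40 bases with SIRT2 on the opposite strand (711 to 1409 counts), and the library method does not mark strand.

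TNFAIP3 encodes a ubiquitin-editing enzyme that shuts off signalling upstream of IKK. It measured 14.4, 13.7, 14.1 and 13.3 CPM in EV and 10.6, 6.05, 10.2 and 10.8 in EV_4OHT. Every senescent library was below every non-senescent one, replicate 54 farthest. TNFAIP3 fell by 0.56 ± 0.17 on the log2 scale (adjusted p 0.00931, edgeR), and by 0.39 without replicate 54 (adjusted p 0.0478, edgeR). Its direction was opposite to that of NFKBIZ. Both promoters held a kB-like match, as did those of 7 of the 8 genes searched, and its part in these changes was not tested.

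NFKBIA, the gene most often used as a readout of NF-kB feedback, measured 83.2, 76.1, 77.1 and 87.6 CPM in EV and 71.7, 76.7, 75.3 and 79.0 in EV_4OHT. The ranges overlapped. Its log2 difference was -0.10 ± 0.09, with a 95% interval of -0.28 to 0.09, so a rise above 0.09 lay outside the interval. NFKBIE, a minor cytoplasmic IkB, ran from 1.43 to 2.34 CPM in EV and from 1.58 to 3.01 in EV_4OHT. Its interval of -0.45 to 0.93 was the widest of the 10, at 19 to 45 counts a library.

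**Figure D3:**
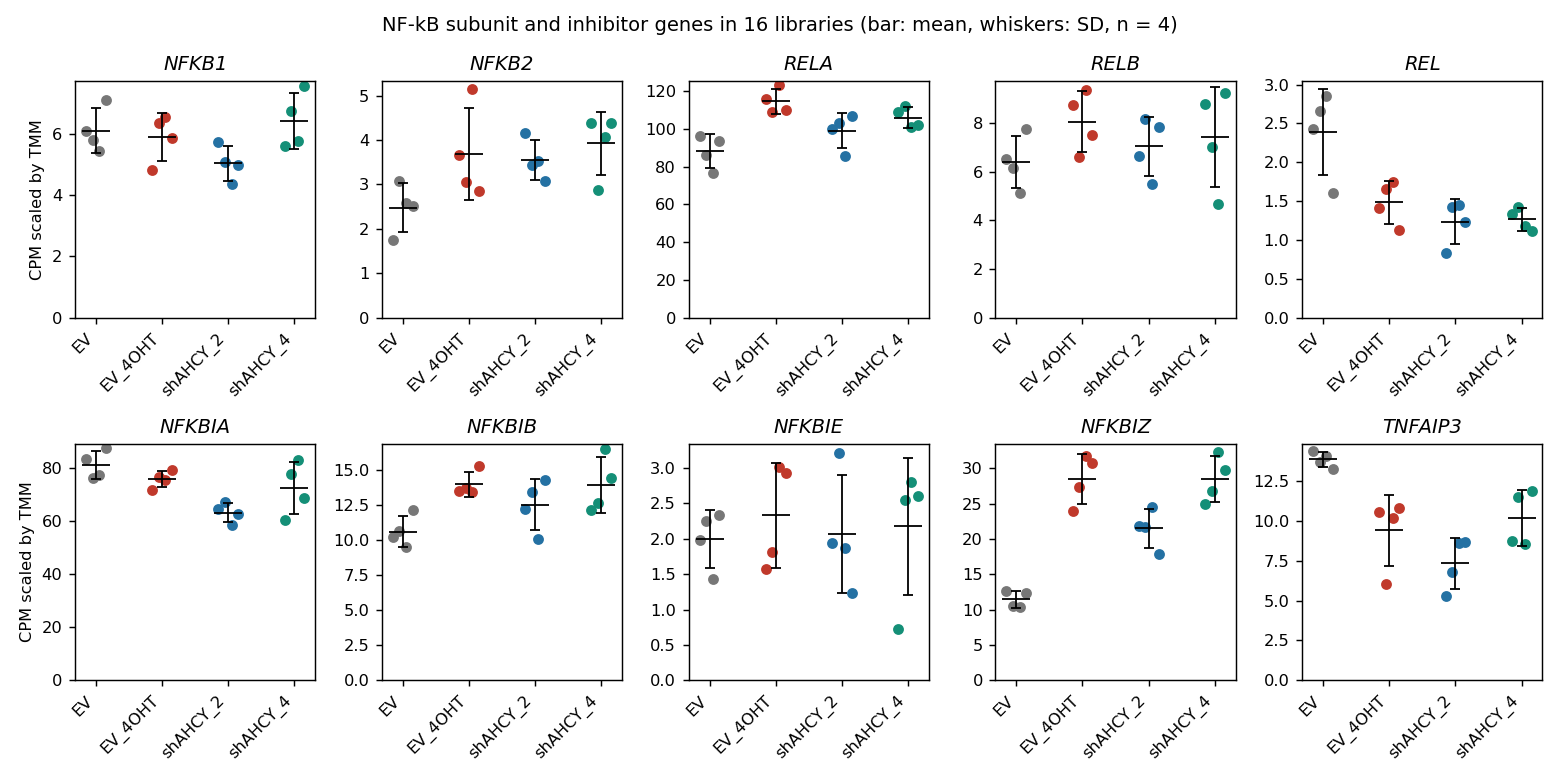
CPM scaled by TMM for each of the 10 genes in the 16 libraries, 1 point per library, with the group mean (bar) and SD (whiskers, n = 4). NFKBIZ separates EV (10.4 to 12.7) from EV_4OHT (24.0 to 31.7), TNFAIP3 is highest in EV, and NFKBIA stays between 58.5 and 87.6 throughout.

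By the measure fixed for likeness, the root mean square difference of centred log2 CPM over the 16 libraries, the genes closest to NFKBIZ were ICAM1 (0.158), SH2B3 (0.188) and SQOR (0.194). ICAM1 encodes a leukocyte adhesion molecule and is a known NF-kB target. It averaged 18.7 ± 2.22 CPM in EV (SD, n = 4), 51.7 ± 4.40 in EV_4OHT, 31.2 ± 1.69 in shAHCY_2 and 47.7 ± 9.51 in shAHCY_4. NFKBIZ averaged 11.5 ± 1.2, 28.5 ± 3.50, 21.5 ± 2.72 and 28.5 ± 3.29 CPM in the same order. SH2B3, a signalling adaptor, kept its raised level with both hairpins (26.9 ± 2.98 CPM in EV_4OHT, 24.9 ± 2.16 and 28.2 ± 4.09 with shAHCY_2 and shAHCY_4). SQOR averaged 31.2 ± 4.01 CPM in EV and 82.0 ± 2.46 in EV_4OHT. It was called lower with shAHCY_2 (53.7 ± 4.29 CPM, log2 change -0.61, adjusted p 8.9e-05, edgeR). With shAHCY_4 it was also called lower (64.1 ± 3.02 CPM, -0.35, adjusted p 0.00886, edgeR).

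The hairpin comparisons ask what differs in cells given 4OHT when they carry a hairpin against AHCY. Both use the same 4 EV_4OHT libraries, so their values are not independent. With shAHCY_2, 1 of the 10 genes fell, NFKBIZ, and none rose. Of all genes 3.91% were called higher and 3.07% lower in that comparison, so 56% of its calls were higher (69.8% with library totals alone). With shAHCY_4, none of the 10 was called by edgeR, DESeq2 or limma-voom. At the same adjusted threshold edgeR called 14.4% of all genes, 52.5% of them higher (67.4% with library totals alone). Of the 10 genes 0 had an unadjusted p under 0.05 (edgeR), a threshold at which the share of all genes is not given here.

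NFKBIZ measured 21.9, 21.7, 24.5 and 17.9 CPM in the shAHCY_2 libraries and 25, 26.8, 32.4 and 29.8 in shAHCY_4, against 24.0 to 31.7 in EV_4OHT. In shAHCY_2, 3 libraries lay below every EV_4OHT library, and replicate 59 lay just inside their range. The log2 change was -0.41 ± 0.12 (adjusted p 0.0393, edgeR), and -0.48 without replicate 59 (adjusted p 0.0177, edgeR). The call passed in 17 of 25 alternatives, with adjusted p from 0.0145 to 0.128 in edgeR, DESeq2 and limma-voom. It was lost without any one of EV_4OHT replicates 54, 55 and 56 (0.0678, 0.128 and 0.110 adjusted p, edgeR) or of shAHCY_2 replicates 57, 58 and 60 (0.0611, 0.0745 and 0.112), while the change stayed between -0.49 and -0.33. The shAHCY_4 change was 0.00 ± 0.12, with a 95% interval of -0.24 to 0.25.

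The other inhibitors did not pass with shAHCY_2. NFKBIA measured 64.4, 67.1, 58.5 and 62.6 CPM, all below the lowest EV_4OHT library, with a change of -0.26 ± 0.09 (adjusted p 0.0840, edgeR; -0.23 and 0.163 without replicate 59). DESeq2 called it (adjusted p 0.0471). With shAHCY_4 NFKBIA spread from 60.5 to 82.8 CPM around the EV_4OHT values, a change of -0.06 (95% interval -0.25 to 0.12). TNFAIP3 measured 5.27, 6.79, 8.61 and 8.67 CPM with shAHCY_2, a change of -0.36 (-0.74 to 0.02), and 8.77, 11.5, 8.58 and 11.9 with shAHCY_4, a change of 0.12 (-0.25 to 0.49). The 95% intervals of NFKBIB included 0 with either hairpin (-0.43 to 0.12 and -0.28 to 0.27), as did those of NFKBIE (-0.89 to 0.53 and -0.76 to 0.64). For NFKBIB, 3 shAHCY_2 libraries lay below every EV_4OHT library, with a change of -0.16 ± 0.13.

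Of the subunits, RELA with shAHCY_2 measured 100, 103, 85.7 and 107 CPM, all below the EV_4OHT range of 109 to 123. Its change of -0.21 ± 0.09 did not pass (adjusted p 0.160, edgeR), and it was -0.14 without replicate 59, its lowest library. With shAHCY_4 RELA measured 109, 112, 101 and 102 CPM, a change of -0.11 (95% interval -0.29 to 0.06). REL measured 0.833 to 1.45 CPM with shAHCY_2 and 1.11 to 1.43 with shAHCY_4, overlapping EV_4OHT, with intervals of -0.86 to 0.34 and -0.84 to 0.36. NFKB1 ran from 4.36 to 5.74 CPM with shAHCY_2 and from 5.60 to 7.58 with shAHCY_4, RELB from 5.5 to 8.15 and from 4.66 to 9.21, and NFKB2 from 3.07 to 4.16 and from 2.87 to 4.38. None of these 3 was called with either hairpin. Without replicate 59 the shAHCY_2 changes of the members not given above were -0.17 for NFKB1, -0.07 for NFKB2, -0.09 for RELB (-0.18 with it), -0.33 for REL, -0.07 for NFKBIB (-0.16 with it), -0.14 for NFKBIE and -0.43 for TNFAIP3, none of them called.

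**Figure D4:**
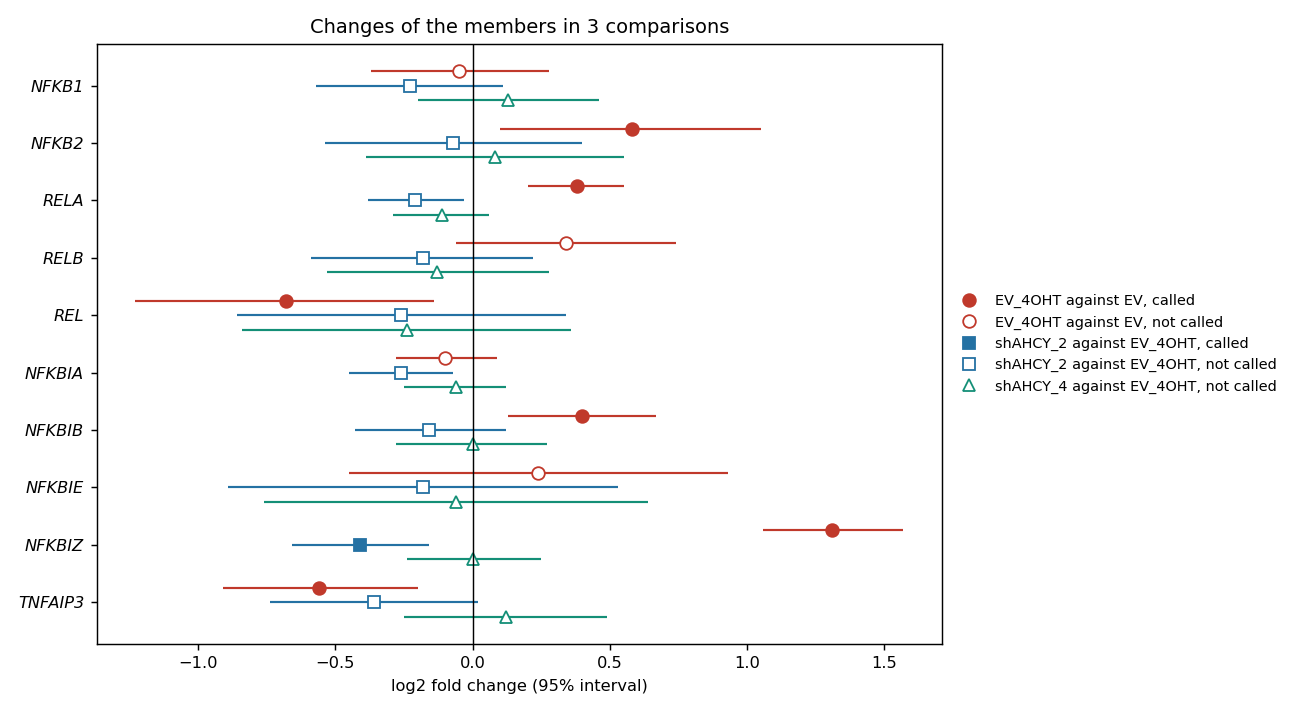
Log2 fold changes with 95% intervals of the 10 genes for EV_4OHT against EV, shAHCY_2 against EV_4OHT and shAHCY_4 against EV_4OHT; filled symbols have an adjusted p under 0.05. NFKBIZ stands out at 1.31 in senescence, and of the hairpin changes only that of NFKBIZ with shAHCY_2 (-0.41) is filled.

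The hairpins were also compared with each other. At an adjusted p under 0.05 edgeR and limma-voom called 0 of the 10 genes and DESeq2 called 1, NFKBIZ, while 1.24% of all genes were called by edgeR. Unadjusted p-values (edgeR) were under 0.05 for 4 genes, all higher with shAHCY_4. The share of all genes under that looser threshold is not given here, so whether 4 of 10 is many cannot be said. NFKBIZ was higher in each shAHCY_4 library than in any shAHCY_2 library, by 0.41 ± 0.12 (95% interval 0.17 to 0.66; adjusted p 0.0868, edgeR). The differences were 0.48 ± 0.18 for TNFAIP3 (adjusted p 0.178, edgeR), 0.36 ± 0.16 for NFKB1 and 0.20 ± 0.09 for NFKBIA (both 0.249). Without replicate 59 these 4 differences were 0.48 for NFKBIZ (adjusted p 0.0683, edgeR), 0.55 for TNFAIP3, 0.30 for NFKB1 and 0.16 for NFKBIA, and 0 of the 10 genes were called. A difference between the hairpins in these genes was therefore not established, nor were they shown to act alike.

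The hairpin groups were also set against the non-senescent cells, with the same EV libraries as in the senescence comparison. With shAHCY_4 the same 4 genes were higher and the same 2 lower than in EV, where 25.4% of all genes were higher and 25.8% lower: NFKBIZ by 1.32 ± 0.12, NFKB2 by 0.66 ± 0.23, NFKBIB by 0.40 ± 0.13, RELA by 0.26 ± 0.09, TNFAIP3 by -0.44 ± 0.17 and REL by -0.92 ± 0.27 (adjusted p 8.95e-09 to 0.0387, edgeR). The calls of NFKBIZ and REL were kept in all 25 alternatives, NFKBIB in 24, RELA and NFKB2 in 23 and TNFAIP3 in 20. Without EV replicate 51, RELA (adjusted p 0.0546, edgeR) and TNFAIP3 (0.0635) were not called. With shAHCY_2, 1 was higher, NFKBIZ by 0.90 ± 0.12, and 3 were lower, TNFAIP3 by -0.91 ± 0.18, REL by -0.94 ± 0.27 and NFKBIA by -0.36 ± 0.09 (adjusted p 2.96e-06 to 0.00638, edgeR), where 24.5% of all genes were higher and 23.6% lower. Without replicate 59, RELA (0.24) and NFKBIB (0.34) were called higher as well, which makes 6 genes. NFKBIA was thus below EV in the shAHCY_2 group, with no overlap of libraries, and was not called against EV in EV_4OHT or shAHCY_4. The shAHCY_4 change had the same direction (-0.16) and was called in 2 of 25 alternatives. These were removal of the GC trend (-0.19, adjusted p 0.0307, edgeR) and leaving out shAHCY_4 replicate 63 (-0.23, adjusted p 0.0475, edgeR).

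The rest of the pathway was read from 4 lists. Of the IKK complex, adaptors and ubiquitin ligases 21 of 23 genes were tested, and 4 rose and 5 fell in senescence (median log2 change -0.0944, all genes -0.0159), where 26.7% of all genes rose and 26.8% fell, so this list showed no excess of calls. BTRC, the subunit of the ubiquitin ligase that recognises phosphorylated IkB, rose by 0.94 ± 0.10, from 43.0 ± 4.99 to 82.8 ± 7.91 CPM (SD, n = 4). MAP3K14, the kinase that starts the non-canonical pathway, fell by 1.92 ± 0.21, from 7.47 ± 1.47 to 1.97 ± 0.495 CPM. The interleukin-1 receptor kinase gene IRAK4 fell by 1.15 ± 0.13 and the adaptor gene TRAF5 by 1.56 ± 0.18. Of 15 other IkB proteins and brakes, 4 rose and 1 fell (median 0.00449), against the same shares of all genes. ZC3H12A, which encodes an RNase that degrades inflammatory transcripts, rose by 1.62 ± 0.14, from 4.20 ± 0.731 to 12.9 ± 1.25 CPM. The NF-kB repressing factor gene NKRF rose by 0.80 ± 0.12 and the nuclear IkB gene BCL3 by 0.60 ± 0.21, and PDLIM2 fell by 0.32 ± 0.09. Neither list had a call with shAHCY_2 (3.91% of all genes higher, 3.07% lower) or shAHCY_4 (7.58% higher, 6.86% lower). Without replicate 59, 1 gene of the first list, the TNF receptor adaptor TRADD, was called lower with shAHCY_2 (-0.42 ± 0.12). Between the hairpins, where 0.54% of all genes were higher and 0.702% lower with shAHCY_4, 1 gene of the 2 lists was called: CYLD, a deubiquitinase, at 60.8 ± 4.26 CPM with shAHCY_4 and 44.7 ± 3.18 with shAHCY_2, a log2 difference of 0.44 with or without replicate 59.

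Of 12 upstream receptor genes 8 were tested; 3 rose and 2 fell in senescence (median 0.0340), a share near that of all genes (26.7% higher, 26.8% lower). The lymphotoxin receptor gene LTBR rose by 0.58 ± 0.09 and TNFRSF12A by 0.48 ± 0.08, while TNFRSF11B, which encodes a decoy receptor, fell by 0.61 ± 0.06. TLR3 had 64 counts over the EV libraries and 2 over EV_4OHT, which puts it at 3.89% of its EV level (95% exact interval 0.461 to 14.6, counting error only). With shAHCY_2, 2 receptors fell and 1 rose, against 3.07% and 3.91% of all genes. LTBR and TNFRSF1A, the main TNF receptor gene, fell by 0.36 ± 0.09 and 0.27 ± 0.08, and TNFRSF11B rose by 0.36 ± 0.06. Without replicate 59 these changes were -0.31, -0.26 and 0.35, and TNFRSF1A was no longer called (adjusted p 0.0761, edgeR). With shAHCY_4, LTBR fell by 0.36 ± 0.09 and TNFRSF1A by 0.33 ± 0.08, and TLR3 was called higher at 24 counts, where 6.86% of all genes fell and 7.58% rose. Between the hairpins TNFRSF11B was lower with shAHCY_4 by -0.41 ± 0.06 (adjusted p 0.0013, edgeR; -0.41 without replicate 59).

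The list of target genes outside the 10 moved farthest. Like the other lists, it was chosen with earlier results of these data known. Its counts, here and with the hairpins below, are therefore description and no independent support. Of 25 tested (of 30 listed) 19 rose and 3 fell in senescence, with a median log2 change of 2.11, where 26.7% of all genes rose and 26.8% fell (median -0.0159). CXCL8, a neutrophil chemokine, rose from 3.14 ± 0.940 to 336 ± 12.2 CPM (SD, n = 4), the cytokine gene IL1B from 0.278 ± 0.311 to 131 ± 5.68, and CXCL3 from 0.253 ± 0.259 to 43.1 ± 4.13. TNFAIP6, a secreted hyaluronan-binding protein gene, rose from 5.46 ± 0.132 to 88.6 ± 5.40. The 3 that fell were VCAM1 (-2.94), TNFAIP8 (-1.94) and SDC4 (-0.85). CSF3 had 0 counts in EV and was at least 396-fold higher in EV_4OHT, the floor being 3 counts over the EV group.

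With the hairpins most of the called target genes were lower. With shAHCY_2, 11 of 25 fell and 1 rose (median log2 change -0.553, all genes 0.0101), where 3.07% of all genes fell and 3.91% rose. Without replicate 59, 11 fell and 0 rose (median -0.52), since TNFAIP6, the gene that rose, was no longer called (0.23, adjusted p 0.0716, edgeR). With shAHCY_4 11 fell and 1 rose (median -0.474, all genes 0.00739), where 6.86% of all genes fell and 7.58% rose. CXCL8 fell by 0.73 ± 0.11 with shAHCY_2 (0.83 without replicate 59) and 0.66 ± 0.11 with shAHCY_4. IER3 fell by 0.45 ± 0.08 (0.41 without replicate 59) and 0.50 ± 0.08. Among the smallest adjusted p-values with shAHCY_2 were also those of IL1B (-0.69 ± 0.11) and ICAM1 (-0.73 ± 0.12), which were -0.71 and -0.73 without replicate 59, and with shAHCY_4 those of IL6 (-1.88 ± 0.26) and CXCL2 (-1.20 ± 0.19). Between the hairpins ICAM1 (0.62 ± 0.12) and IL1B (0.51 ± 0.11) were higher and CCL2 (-0.60 ± 0.14) lower with shAHCY_4. Without replicate 59 these were 0.62, 0.53 and -0.55, and CCL2 was no longer called (adjusted p 0.0571, edgeR). The leukocyte marker sum, given above, was also higher in the 3 groups given 4OHT than in EV, and its part in these changes was not tested.

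**Figure D5:**
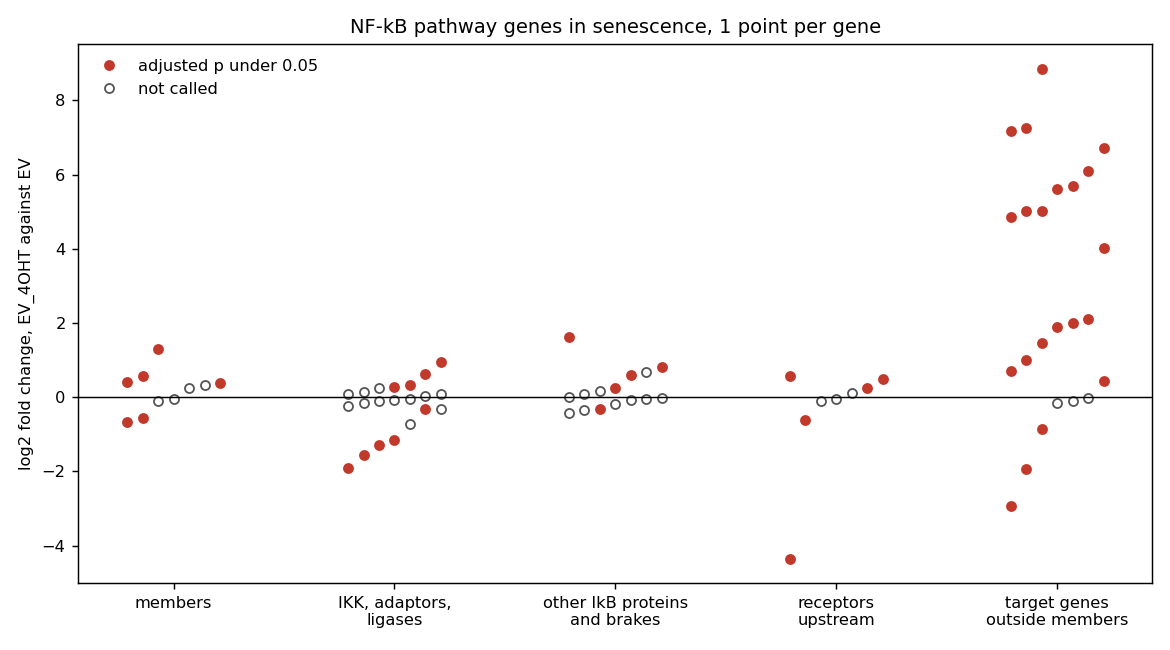
Log2 fold change of EV_4OHT against EV for the 10 genes and 4 pathway lists, 1 point per tested gene, filled where the adjusted p was under 0.05; CSF3 is left out because it had 0 counts in EV, and the lowest receptor point is TLR3, at 2 counts in EV_4OHT. The 10 genes lie between -0.68 and 1.31, while most target genes lie above 0, up to IL1B at 8.86.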

How the data were processed

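CASAVA 1.8.2, TopHat2 2.0.11 and featureCounts 1.18.0 were used with hg19 or GRCh37, per the submitters' processing notes. Per the labels' protocols, libraries were made by Smart-Seq2. The authors deposited whole-number counts per gene for 16 libraries, not normalized. Which annotation was counted, and how strand and multi-mapping reads were handled, is not given in the sources used here.

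From these counts, edgeR 4.0.16 (R 4.3.3) with TMM factors and filterByExpr fitted 1 quasi-likelihood model, with 4 group means, across the 16 libraries. Tests of the 6 comparisons were two-sided, and p-values were adjusted by Benjamini-Hochberg over 13526 genes, with a threshold of 0.05. The standard error is the absolute log2 change divided by the square root of F. Levels are TMM-scaled CPM (counts per library scaled to a common size), and the biological coefficient of variation was 11.9%. Lengths and gene overlaps come from GENCODE v29 on GRCh38, promoter windows from RefSeq, another build than that of the counts. The fitting code was tested on simulated data.

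The members and the pathway and marker lists were chosen with earlier results of these data known. Named genes were the members, AHCY, up to 4 genes per list with the smallest adjusted p, and the 3 genes most like any member that changed by at least 1 on the log2 scale. SOD2 was not matched by symbol, and 10 listed pathway genes were below the filter. VCAM1, TNFAIP8, SDC4, CSF3, and genes named because a count was 5 or fewer, fall outside that rule and were named after their values were seen.

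The 25 alternatives were RLE or upper-quartile factors, library totals alone, DESeq2 1.42.0, limma-voom (limma 3.58.1), no low-count filter, 10 counts in 8 libraries, only the 2 groups compared, removal of each library's GC trend, and leaving out each library in turn.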

Additional observations from a re-analysis of the deposited data

Results flagged for a closer look

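For 2 of the 40 combinations of a gene and a group, 1 library lay farther from the other 3 than Dixon's test allows at the 95% level. Chance alone flags about 1 in 20 such groups, or 2 of 40. TNFAIP3 was at 6.05 CPM in EV_4OHT replicate 54, against 10.2 to 10.8 in the other 3 libraries of that group, a gap of 0.877 of the group's range. NFKBIE was at 0.731 CPM in shAHCY_4 replicate 61, the library with the fewest counts, a gap of 0.875 of the range, from 6 counts of that gene. Without replicate 61 the shAHCY_4 change of NFKBIE was 0.18 in place of -0.06, and neither value passed the test.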

How the results depend on the processing

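No paired analysis was possible because the replicate numbers are not shared between groups. For the single members, the alternatives other than leaving out a library gave 512 values with the same direction and call, 8 newly called, 10 no longer called and 10 of opposite sign. Leaving out a library gave 893, 3, 26 and 38. With shAHCY_2 the number of members called was 1, 0 with library totals alone or only the 2 groups compared, 2 with DESeq2 or the GC trend removed, and 0 to 1 when a library was left out. Between the hairpins it was 0, and 1 with DESeq2 or the GC trend removed. For shAHCY_2 against EV it was 4, and 7 with the GC trend removed. The AHCY difference between hairpins was -0.34 and not called, -0.38 and called with the GC trend removed, and -0.49 to -0.21 when a library was left out (called without shAHCY_2 replicate 59). The cause was not tested.

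Signs turned only for changes that were called in neither setting. Under other settings these were NFKB2 with shAHCY_2 (0.0049, GC trend removed), NFKBIB with shAHCY_4 (0.05, library totals alone), RELB between the hairpins (-0.0022, limma-voom) and NFKBIE for shAHCY_2 against EV (-0.02, library totals alone). NFKBIZ with shAHCY_4 was -0.0024 with RLE factors, -0.0022 with upper-quartile factors, -0.002 with DESeq2, -0.0073 with no filter, -0.0038 with 10 counts in 8 libraries and -0.0012 with 2 groups. When a library was left out, NFKB1 ran from -0.12 to 0.04 in senescence and from -0.02 to 0.16 for shAHCY_4 against EV. With shAHCY_2, NFKB2 ran from -0.17 to 0.15 and NFKBIE from -0.5 to 0.02, and NFKBIE ran from -0.28 to 0.24 against EV. With shAHCY_4, NFKB2 ran from -0.03 to 0.3, RELB from -0.26 to 0.04, NFKBIA from -0.14 to 0.01, NFKBIB from -0.1 to 0.05, NFKBIE from -0.21 to 0.18, NFKBIZ from -0.08 to 0.07 and TNFAIP3 from -0.05 to 0.19. Between the hairpins, RELB ran from -0.08 to 0.22, REL from -0.11 to 0.11 and NFKBIE from -0.07 to 0.45. REL, NFKBIE and NFKB2, with 6 to 77 counts a library, had the widest intervals.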
